A study of Mus musculus with 2 samples.

Results

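The genes described here make cholesterol and fatty acids, control that synthesis through the sterol regulatory element-binding proteins (SREBPs), or store and release triglyceride. They were chosen by symbol as a fixed list of 44 genes, and all 44 are among the 24346 genes listed for each of 2 libraries of mouse heart. The mice had been given a high-fat diet and had undergone myocardial infarction, and both libraries carry the age label day 14, which does not name the event counted from. The probucol group is 1 library from heart of treated animals, and the untreated group is 1 library from heart without the drug. The labels used here give neither genotype nor strain, nor the part of the heart, nor whether animals were pooled. The header of both deposited columns holds the mark HypoE, which the labels do not explain, and whether it names a genotype shared by both libraries was not settled. Probucol is an antioxidant drug that lowers plasma cholesterol, and the study's title concerns dendritic cells, T helper cells and remodelling after infarction. With 1 library per group no difference below has a replicate check or a test, and each one compares these libraries, not the treatments.

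Cholesterol is built from acetyl-CoA through mevalonate, farnesyl pyrophosphate, squalene and lanosterol. When sterol is scarce, the escort protein SCAP carries SREBPs out of the endoplasmic reticulum, and they switch on genes of this pathway and of low-density lipoprotein uptake. When sterol is plentiful, INSIG proteins hold SCAP back. SREBP-2, the product of Srebf2, acts mostly on sterol genes and SREBP-1c, a product of Srebf1, mostly on fatty acid genes. Heart muscle burns fatty acids and keeps a small, fast-moving pool of triglyceride droplets, whereas macrophages that take up lipoprotein or dead cells store cholesterol as ester.

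SREBPs bind a sterol regulatory element, and 3 stretches of promoter are shown because they carry its core letters in front of genes that open the sterol and the triglyceride pathways. The core was searched as CACNCCAC on both strands of RefSeq windows from 250 bases before to 50 bases after each start site (GRCm38.p6). It was found in 4 of the 47 windows of the 35 members with an entry, or 8.51%, and in 6.24% of all 32851 windows. The matches belong to Hmgcs1, Acat2, Gpam and Insig1. The match of Insig1 begins 9 bases before its start site, on the opposite strand. Acat2 has a further match 53 bases before its start site, also on the opposite strand. Capitals mark the core below, and each sequence runs 5′ to 3′ on the gene's strand.
Hmgcs1, chr13:119690165-119690272, plus strand, core 136 bases before the start: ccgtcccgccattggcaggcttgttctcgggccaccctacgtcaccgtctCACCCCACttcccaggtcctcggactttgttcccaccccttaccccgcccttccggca
Acat2, chr17:12960849-12960956, minus strand, core 181 bases before the start: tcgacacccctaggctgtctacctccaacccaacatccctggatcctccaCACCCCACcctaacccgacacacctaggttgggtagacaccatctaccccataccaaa
Gpam, chr19:55127361-55127468, minus strand, core 180 bases before the start: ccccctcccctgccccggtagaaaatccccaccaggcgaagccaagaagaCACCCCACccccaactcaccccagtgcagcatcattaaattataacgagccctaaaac

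The windows of Hmgcs1, Gpam and Insig1 with the core also hold the CCAAT box, and that of Acat2 does not. This box is the motif of the factor NF-Y, which often acts beside SREBPs. CCAAT was present on either strand in 27 of the 47 member windows, or 57.4%, and in 37.4% of all windows. It can share at most 1 base with the core. The windows of Fdps, Fdft1, Sqle, Stard4, Scd1, Scd2, Fads1, Dgat1 and Dgat2 were not analysed here. These matches describe letters, and none of the 4 genes with the core differed 1.5-fold between the libraries.

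Most of these genes had nearly the same level in both libraries. Levels are in FPKM, the fragments of a gene divided by transcript length in kilobases and by the mapped fragments of the library. A difference is given as a log2 ratio, log2((FPKM probucol + 0.5)/(FPKM untreated + 0.5)), positive where probucol was higher, which understates the difference of low genes. Of the 44 members, 41 had a mean of at least 0.5 FPKM, and Sqle, Lss and Elovl6 did not. Of these 41, 1 was at least 1.5-fold lower with probucol, where 12.0% of all 12882 genes past the same filter were. The number at least 1.5-fold higher was 2, against 5.52% of all genes. The remaining 38, or 92.7%, lay between these limits, as did 82.5% of all genes. At least 2-fold, 1 member was lower, against 5.14% of all genes, and 0 were higher, against 1.07%. The median log2 ratio of the measured members was 0.09 and that of all genes 0.01. Above 0 lay 27 of the 41 members and 6563 of the 12882 genes. The member past the lower limit was Soat1, and those past the higher limit were Plin5 and Pnpla2. All 3 act in lipid storage or release, and no synthesis enzyme with a mean of at least 0.5 FPKM passed either limit.

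The libraries had similar depth but differed in cell markers. Judged from the spacing of low values, 1 FPKM over 1 kb of effective length equals 6.71 fragments with probucol and 7.49 without. Every one of 12 macrophage markers was lower with probucol by 1.5-fold or more (median log2 ratio -1.56, summed level 1104 against 3649 FPKM). All 12 cardiomyocyte markers lay above 0 (median 0.46, from 0.24 to 0.63) and together held 73446 against 53011 FPKM. Fibroblast markers had a median of -0.83, with 8 of 10 at least 1.5-fold lower. Cell cycle genes had one of -1.57, with 7 of 8 at least 1.5-fold lower. Endothelial markers had a median of 0.01, with 1 of 8 lower. Hepatocyte markers were nearly absent, with a summed level of at most 6.14 FPKM over 8 genes. Of 10 adipocyte markers, Lep, Ucp1 and Adrb3 were listed at 0 in both libraries and Plin1 at 0.181 against 0 FPKM. Adipoq, the hormone of fat cells, had 0.729 against 0.654 FPKM. Cfd was higher with probucol, at 3.76 against 1.47 FPKM (1.11). Retn at 0.799 against 0 and Cidec at 0.400 against 0 had means under 0.5 FPKM. Pparg had 12.0 against 12.2 FPKM (-0.02). Of the 4 measured adipocyte markers, 2 lay above 0 and 2 below, with a median of 0.04. The summed level of the 10 genes was 1847 against 2293 FPKM, nearly all of it Fabp4, which endothelial cells of the heart also make. In bulk tissue, fewer cells of a type and less RNA per cell cannot be told apart. The part of these cell markers in the values below was not tested.

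**Figure D1:**
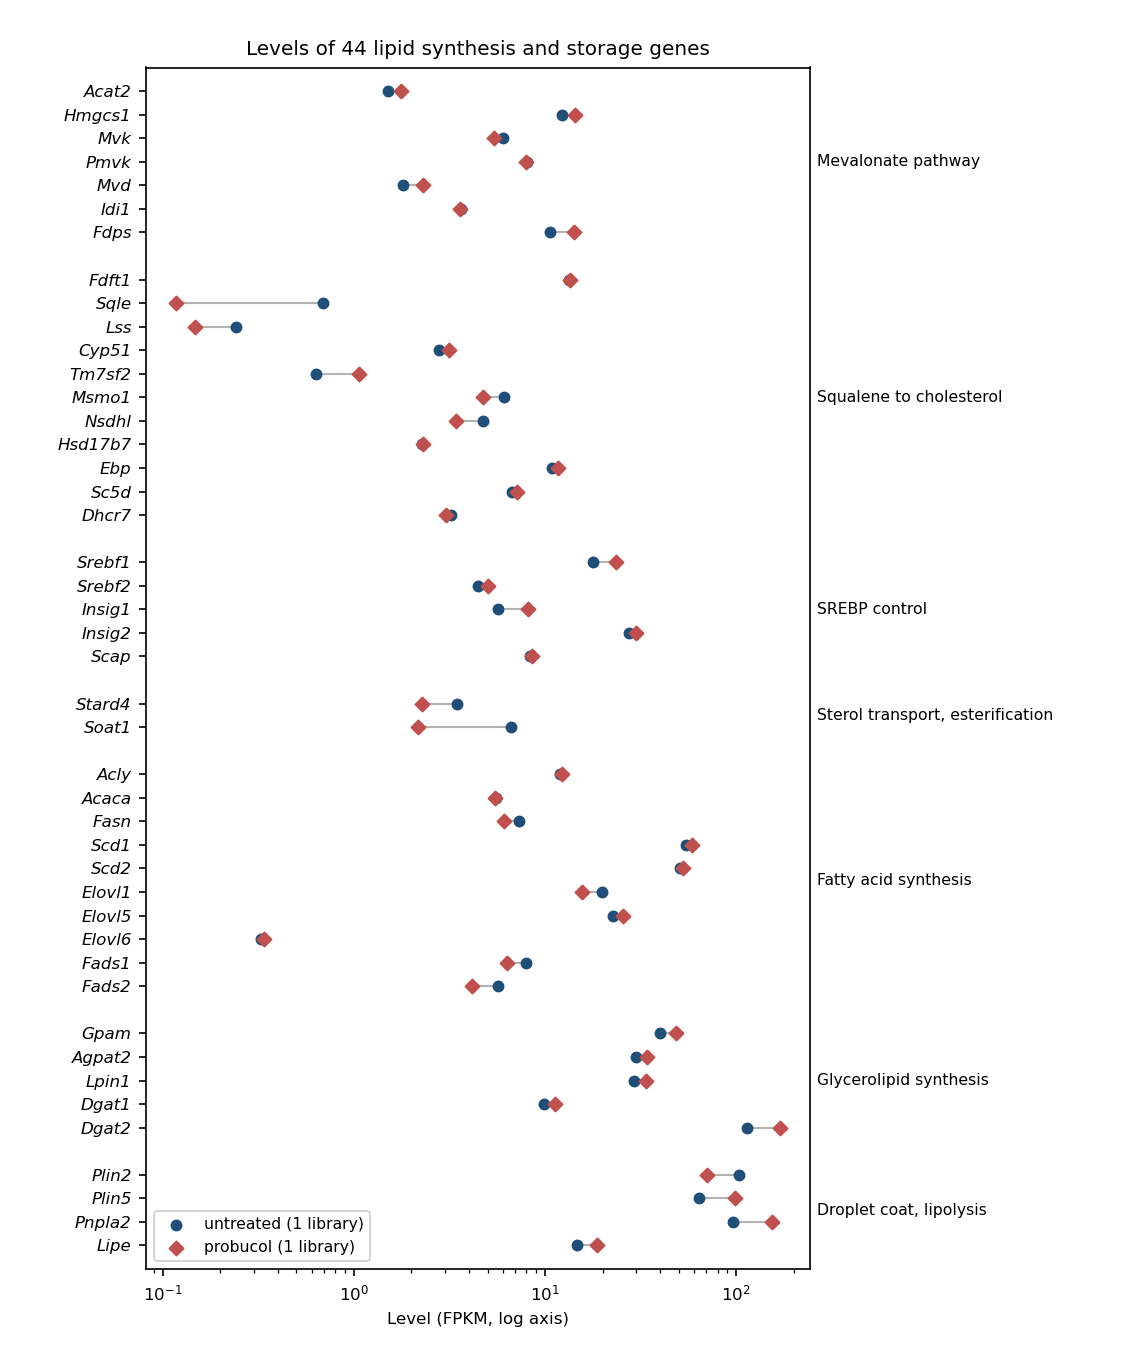
Level of each of the 44 genes in FPKM on a log axis, grouped by role, with diamonds for the probucol library and circles for the untreated library. Most pairs nearly coincide; Soat1 (2.15 against 6.67) and Sqle (0.118 against 0.685) are the widest apart.

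Genes of the mevalonate pathway differed little and in both directions. Acat2, the cytosolic thiolase that joins acetyl-CoA units, had 1.76 FPKM with probucol and 1.51 without. Hmgcs1, which makes HMG-CoA, had 14.4 against 12.2 FPKM, a log2 ratio of 0.23. Fdps, the farnesyl pyrophosphate synthase, had 14.3 against 10.6 FPKM, and its log2 ratio of 0.41 was the highest of these 7 genes. Hmgcs1 and Fdps were also the most abundant of the 7 in both libraries. The kinases lay at or below 0, with Mvk at 5.38 against 6.03 FPKM (-0.15) and Pmvk at 7.91 against 8.05 (-0.02). The decarboxylase Mvd had 2.31 against 1.81 FPKM (0.28), a low level without a counting interval, as it has 2 RefSeq transcripts. The isomerase Idi1 had 3.60 against 3.63 FPKM (-0.01). The median of the 7 genes was 0.17, with 4 above and 3 below 0. At the same sum of FPKM, where the median of all genes was -0.13, the counts were again 4 and 3. Relative to cardiomyocyte markers all 7 lay below 0. That scaling subtracts 0.46 from every ratio and put the median of all genes at -0.45.

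Some of these values may include reads of a near-identical copy. A transcript of Acat2 matched one of Acat3 at 97.7% identity over 1477 bases, and Acat3 had 17.8 against 14.1 FPKM. The sum of both had a log2 ratio of 0.32, against 0.17 for Acat2 alone. A transcript of Tcp1 matched at 98.7% over 445 bases, had 92.7 against 87.6 FPKM, and gave a sum with Acat2 of 0.08. Processed pseudogenes with at least 95% identity over at least 300 bases exist for Fdps, Fdft1, Idi1, Acaca and Elovl6, and the sources do not say how such reads were divided. Of the exon bases of Fdps, 26.7% are also annotated to Gm43738 on the same strand.

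The steps from squalene to cholesterol were likewise near equality, apart from 2 enzymes near the limit of detection. Fdft1, the squalene synthase that commits farnesyl units to sterol, had 13.5 against 13.3 FPKM (0.02). Its exons overlap those of the cathepsin gene Ctsb on the other strand over 774 bases, and Ctsb had 198 against 500.2 FPKM. Sqle, the squalene epoxidase and a rate-limiting enzyme (chromosome 15, 59315077 to 59331192 in mm10), had 0.118 against 0.685 FPKM. That is 2 and 13 fragments, and the FPKM ratio of 0.172 had an exact 95% interval from 0.0188 to 0.758. Lss, the lanosterol synthase, had 0.146 against 0.241 FPKM, from 4 and 8 fragments, with an interval from 0.123 to 2.08 that includes no difference. Squalene epoxidase was therefore lower by more than counting error between these libraries, but rests on few fragments, and for lanosterol synthase no difference was detectable at this depth. The quotient of the Fdft1 to the Sqle level was 115 with probucol and 19.4 without.

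Enzymes that turn lanosterol into cholesterol followed no common direction. Cyp51, the lanosterol demethylase, had 3.14 against 2.78 FPKM (0.15). Msmo1, which removes the methyl groups at carbon C4, had 4.71 against 6.13 FPKM (-0.35), and Nsdhl, which acts in the same complex, had 3.42 against 4.73 (-0.42). Hsd17b7, the ketoreductase of that complex, had 2.29 against 2.27 FPKM (0.01). The intervals of Msmo1 (0.542 to 1.09) and Nsdhl (0.489 to 1.08) both include no difference. The isomerase Ebp had 11.7 against 10.9 FPKM (0.09), and the desaturase Sc5d had 7.10 against 6.76 (0.07). Dhcr7, which performs a last reduction, had 3.04 against 3.23 FPKM (-0.08). Tm7sf2, a sterol reductase, had 1.06 against 0.632 FPKM, a log2 ratio of 0.46 that rests on 9 and 6 fragments with an interval from 0.532 to 5.72. Of its exon bases 12.1% are shared with Vps51. Of 9 measured genes of this branch 6 lay above 0 and 3 below, with a median of 0.02, and 0 passed 1.5-fold. At the same sum of FPKM 2 lay above and 7 below (median -0.11), and relative to cardiomyocyte markers all 9 lay below. The medians of all genes on these scales were -0.13 and -0.45.

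The 5 members that control SREBPs lay slightly above 0 as deposited. Insig1, an SREBP target whose product retains SCAP (chromosome 5, 28071363 to 28078662), had 8.14 against 5.65 FPKM, a log2 ratio of 0.49. It rests on 136 and 105 fragments, with an interval of the FPKM ratio from 1.11 to 1.88 that excludes equality. Srebf1 (chromosome 11, 60199089 to 60222581) had 23.6 against 17.9 FPKM (0.39), and its total does not separate the forms SREBP-1a and SREBP-1c. Both were higher with probucol without reaching 1.5-fold. Srebf2 had 5.03 against 4.45 FPKM (0.16), with an interval from 0.904 to 1.41. Insig2, the INSIG gene that is not an SREBP target in liver, had 29.8 against 27.5 FPKM (0.12). Scap had 8.59 against 8.35 FPKM (0.04). All 5 lay above 0 as deposited, but 3 of 5 did when both libraries were scaled to the same sum of FPKM. Relative to cardiomyocyte markers 1 of 5, Insig1, did. The medians of all genes on the last 2 scales were -0.13 and -0.45. Within a library the order was the same in both: Insig2 was 3.66 times as abundant as Insig1 with probucol and 4.86 times without, and Srebf1 was 4.69 and 4.02 times as abundant as Srebf2.

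Cholesterol handling after synthesis gave the largest difference among measured members. Soat1, which esterifies cholesterol for storage and is the main such enzyme of macrophages (chromosome 1, 156424525 to 156474331), had 2.15 FPKM with probucol and 6.67 without. The log2 ratio was -1.43, or 2.70-fold lower, from 118 against 407 fragments, and the interval of the FPKM ratio ran from 0.261 to 0.398. Stard4, a carrier of cholesterol between membranes and an SREBP-2 target, had 2.26 against 3.47 FPKM (-0.53). Both genes were lower with probucol. Soat1 lay within the range of the macrophage markers, from -2.35 to -0.72, and Stard4 above it. Soat1 also lay within the range of the cell cycle genes, from -1.78 to -0.53. Stard4 lay within that of the fibroblast markers, from -1.41 to -0.47.

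**Figure D2:**
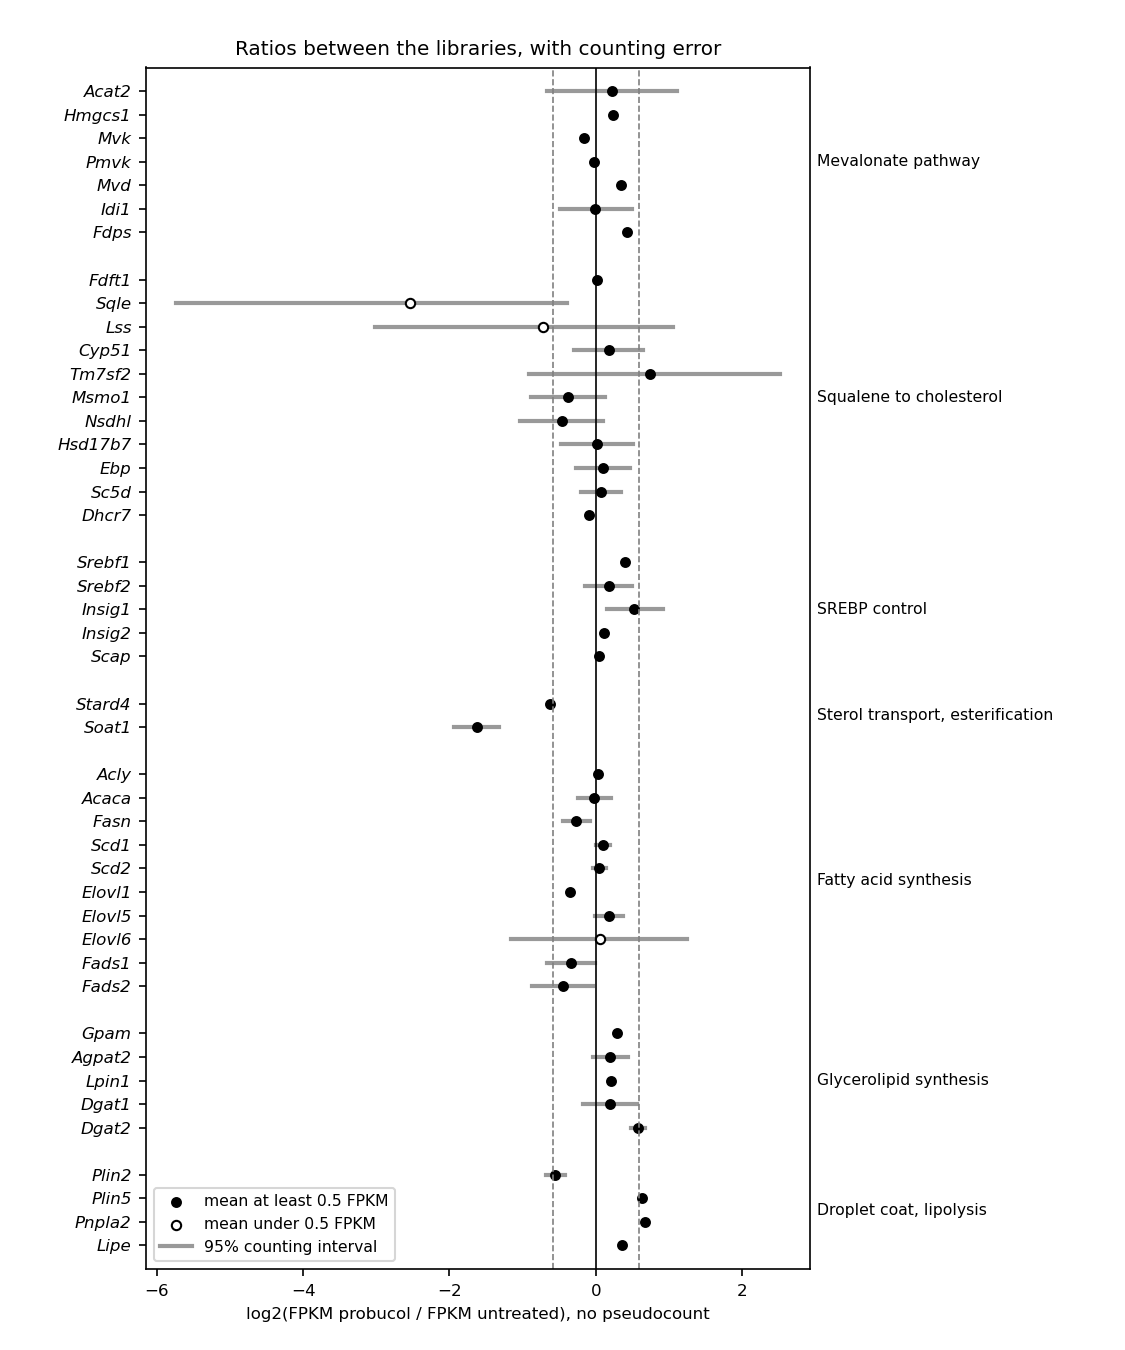
Log2 of the FPKM ratio of each gene, without a pseudocount, with bars for the exact 95% counting interval of the 26 members with 1 RefSeq transcript; dashed lines mark 1.5-fold and open points a mean under 0.5 FPKM. The bar of Soat1 (0.261 to 0.398 as a ratio) lies wholly beyond the lower dashed line, while most bars of sterol genes cross 0.

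Fatty acid synthesis was nearly the same in both libraries as deposited. Acly, which makes cytosolic acetyl-CoA from citrate, had 12.2 against 11.9 FPKM (0.03). Acaca, the carboxylase that makes malonyl-CoA, had 5.45 against 5.52 FPKM (-0.02). Fasn, the fatty acid synthase, had 6.09 against 7.32 FPKM (-0.25), from 402 against 539 fragments with an interval from 0.730 to 0.949. As deposited, the chain-building enzyme thus was lower by more than counting error, though by much less than 1.5-fold. The 2 enzymes that supply it were level on that scale. At the same sum of FPKM Fasn, Acly and Acaca had -0.38, -0.11 and -0.15, and relative to cardiomyocyte markers -0.71, -0.43 and -0.48.

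As deposited, the desaturases of monounsaturated fatty acids lay slightly above 0 and those of polyunsaturated fatty acids below, but at the same sum of FPKM all 4 lay below 0. Scd1 had 58.6 against 54.8 FPKM (0.10) and Scd2 had 52.9 against 51.1 (0.05). These enzymes place the first double bond in stearate, and in both libraries they were the most abundant members of the fatty acid group. Part of a transcript of Scd1 matched Scd2 at 95.5% over 623 bases, and their sum had a log2 ratio of 0.07. Fads1, the delta-5 desaturase, had 6.30 against 7.95 FPKM (-0.31), and Fads2, the delta-6 desaturase, had 4.14 against 5.67 (-0.41). Their intervals, 0.632 to 0.991 and 0.547 to 0.975, exclude equality narrowly. The elongase Elovl5, which lengthens polyunsaturated chains, had 25.5 against 22.6 FPKM (0.17), and Elovl1, which acts on very long saturated chains, had 15.6 against 19.8 (-0.34). Elovl6, the elongase of palmitate, was barely present, at 0.338 against 0.327 FPKM from 13 and 14 fragments. Over the 9 measured genes of fatty acid synthesis the median was -0.02, with 4 above 0 and 5 below. At the same sum of FPKM 1 lay above and 8 below, and relative to cardiomyocyte markers 9 lay below. The medians of all genes on these scales were -0.13 and -0.45.

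The 5 members of triglyceride synthesis were all somewhat higher with probucol as deposited. Dgat2, which adds the third fatty acid (chromosome 7, 99153658 to 99182719), had 169.6 FPKM with probucol and 114 without and was the most abundant member in both libraries. Its log2 ratio of 0.57 is 1.49-fold, just under the limit, from 2334 against 1748 fragments with an interval of the FPKM ratio from 1.40 to 1.59. Dgat1, the unrelated enzyme for the same step, had 11.3 against 9.87 FPKM (0.19), with an interval from 0.885 to 1.48. Earlier steps differed less than Dgat2. Gpam, the mitochondrial acyltransferase that starts the pathway, had 48.7 against 39.8 FPKM (0.29). Agpat2 had 34.2 against 29.9 FPKM (0.19), with an interval from 0.972 to 1.35 that includes no difference. Lpin1, a phosphatidate phosphatase, had 33.7 against 29.2 FPKM (0.21). All 5 lay above 0 as deposited and after scaling to the same sum of FPKM (median 0.21 and 0.06). The medians of all genes were 0.01 and -0.13. Relative to cardiomyocyte markers 4 of 5 lay below 0, on a scale where the median of all genes was -0.45.

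Genes of the lipid droplet differed in both directions. Plin5, which ties droplets to mitochondria in heart and other oxidative tissue (chromosome 17, 56111601 to 56117596), had 98.7 FPKM with probucol and 63.8 without (0.63, 1.55-fold). Pnpla2, the adipose triglyceride lipase that heart muscle also needs (chromosome 7, 141455198 to 141460743), had 153.9 against 96.9 FPKM (0.67, 1.59-fold). Plin2, the coat protein found in most cells that hold droplets, macrophages included (chromosome 4, 86648386 to 86670060), went the other way, with 70.1 against 103 FPKM (-0.55). Plin2 rests on 789 against 1294 fragments, with an interval from 0.622 to 0.744. Plin5 had 1.41 times the level of Plin2 with probucol and 0.619 times without, so their order was reversed between the libraries. Lipe, the hormone-sensitive lipase, had 18.7 against 14.6 FPKM (0.34).

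The glycerolipid and droplet members above 0 lay only in part within the range of the cardiomyocyte markers. Plin5 and Pnpla2 were at or just past the upper end of the cardiomyocyte range of 0.24 to 0.63, and Dgat2, Lipe and Gpam lay inside it. Agpat2 (0.19), Dgat1 (0.19) and Lpin1 (0.21) lay below it. The counting intervals of Agpat2 (up to 1.35) and Dgat1 (up to 1.48) reach into that range, whose lower end is 1.18-fold. Lipe, Gpam, Agpat2, Dgat1 and Lpin1 also lay inside the range of the endothelial markers, from -0.69 to 0.40. When both libraries were scaled to the same sum of FPKM, which moved the median of all genes to -0.13, Plin5 had 0.48 and Pnpla2 0.52, under the limit, and Plin2 had -0.70. Relative to the median of cardiomyocyte markers, which moved the median of all genes to -0.45, they had 0.17, 0.20 and -1.01. On that scale 10 of 41 members were at least 1.5-fold lower and 0 higher, against 36.1% and 0.924% of all genes.

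**Figure D3:**
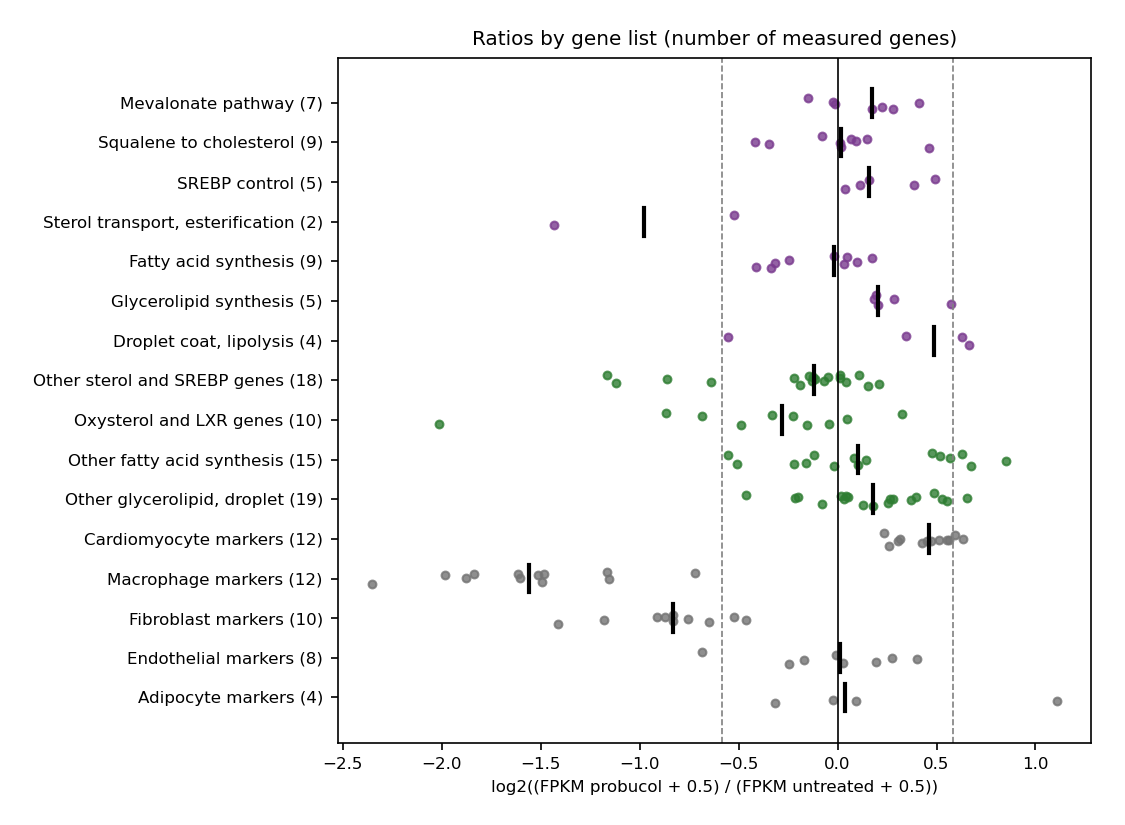
Log2 ratio of each measured gene by list, with a bar at the median; the 7 member groups are purple, other pathway genes green and cell markers grey, and dashed lines mark 1.5-fold. Medians are 0.17 for the mevalonate pathway, 0.02 for squalene to cholesterol and -0.02 for fatty acid synthesis. Soat1 (-1.43) lies within the range of the macrophage markers, whose median is -1.56. It also lies within that of the cell cycle genes, which are not drawn.

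Other genes of the same pathways were followed by list. Of 72 further genes, 62 were measured, with 7 at least 1.5-fold lower, 4 higher and a median of 0.01, against 12.0% and 5.52% of all genes and the same median. Among 18 measured genes of sterol and SREBP biology, 4 were lower and 0 higher (median -0.12). The lowest were Lipa (-1.17), the acid lipase that frees cholesterol from lipoprotein in lysosomes, Npc2 (-1.12), which carries it out of them, and Tmem97 (-0.86), a partner of the lysosomal exporter. Lipa had 23.4 against 53.2 FPKM and Npc2 33.2 against 72.6. Among those above 0 were the ester hydrolase Nceh1 (0.21) and Rnf139 (0.11), a ubiquitin ligase of the endoplasmic reticulum. The proteases that release SREBPs in the Golgi were near 0, with Mbtps1 at 16.2 against 17.7 FPKM and Mbtps2 at 3.77 against 3.73; these were chosen after their values were seen.

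Genes of oxysterols and of the liver X receptors (LXRs), which sense surplus sterol, were lower in part. Of 10 measured, 3 were lower by at least 1.5-fold and 0 were higher, against 12.0% and 5.52% of all genes, and the median was -0.28. Ch25h, which makes 25-hydroxycholesterol, had 0.522 against 3.63 FPKM (-2.01), the lowest value among the lists of other pathway genes. It rests on 4 against 32 fragments, with an interval of the FPKM ratio from 0.0358 to 0.393. Arl4c (-0.87) and the sterol exporter Abcg1 (-0.68, 14.6 against 23.7 FPKM) followed. The highest were Lpcat3 (0.33), Mylip (0.05) and Nr1h2 (-0.04), the widely expressed LXR. Srebf1, itself an LXR target, stood at 0.39 as deposited, 0.25 at the same sum of FPKM and -0.07 relative to cardiomyocyte markers. Its total does not separate the forms SREBP-1a and SREBP-1c.

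Further genes of fatty acid synthesis had 3 of 15 measured at least 1.5-fold higher and 0 lower, against 5.52% and 12.0% of all genes. At the same sum of FPKM 1 was at least 1.5-fold higher and 2 were lower, against 2.99% and 15.7% of all genes. Relative to cardiomyocyte markers 0 were higher and 4 lower, against 0.924% and 36.1%. Those higher as deposited were Thrsp (0.85, 25.7 against 14.0 FPKM), a regulator of lipogenesis, Elovl7 (0.67) and Tecr (0.63, 360.4 against 233 FPKM), the last enzyme of the elongation cycle. The lowest were the citrate carrier Slc25a1 (-0.55), Hsd17b12 (-0.51) and Fads3 (-0.22). Among 19 measured genes of glycerolipids and droplets 15 lay above 0, as did 6563 of all 12882 measured genes. Past 1.5-fold higher was 1, the coat protein Plin3 (0.65, 119 against 75.3 FPKM), against 5.52% of all genes. At the same sum of FPKM, where the median of all genes was -0.13, 11 lay above 0, with 0 at least 1.5-fold higher and 1 lower. Relative to cardiomyocyte markers, where the median of all genes was -0.45, 4 lay above 0. Plin3 was followed by Lpin3 (0.55) and Fitm2 (0.53), which helps droplets to bud. The lowest were Bscl2 (-0.47), the seipin gene, Hilpda (-0.21), an inhibitor of Pnpla2, and Lpin2 (-0.20). Of the droplet coat genes, Plin3, Plin4 (0.39, 39.0 against 29.6 FPKM, named after its value was seen) and Plin5 were thus above 0 and Plin2 below as deposited.

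Counting error could be given for the 26 members with 1 RefSeq transcript, of which 23 had a mean of at least 0.5 FPKM. Among these 23, Soat1, Fasn, Fads1, Fads2 and Plin2 had an interval of the FPKM ratio wholly below 1, against 21.6% of 6187 genes of this kind. Insig1, Scd1 and Dgat2 had one wholly above 1, against 21.2% of those genes. The 5 members below are 21.7% of the 23, near the share of all genes. With both libraries at the same sum of FPKM, an alternative chosen after the data were seen, Msmo1, Nsdhl and Scd2 joined those below and Scd1 left those above, and the shares of all genes became 31.1% and 12.3%. Of the 3 members with lower means, Sqle alone excluded 1 as deposited. Such intervals cover counting error only and say nothing of the spread between animals.

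**Figure D4:**
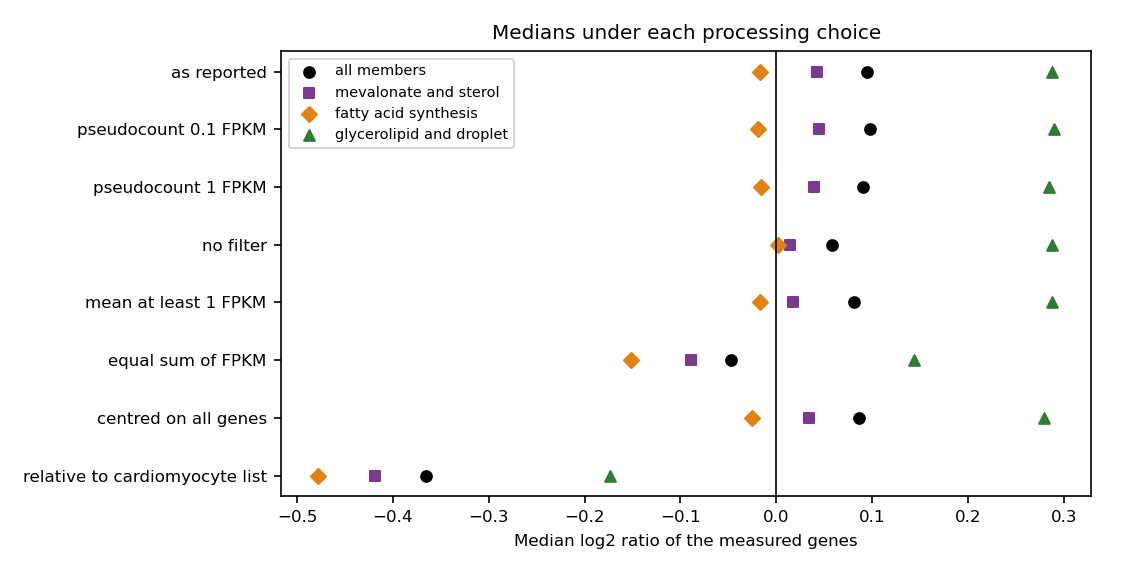
Median log2 ratio of the measured members and of 3 groups under each processing choice. Pseudocount and filter leave the medians almost in place, while the reference used for scaling moves them, from 0.29 to -0.17 for glycerolipid and droplet genes.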

How the data were processed

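RNA was sequenced from heart tissue, with libraries made by a stranded mRNA kit, per the labels' protocols. The authors deposited FPKM, 1 value for each of 24346 gene symbols in each of 2 libraries. Build mm10, Bowtie2, TopHat2 2.1.1 and Cuffdiff 2.2.1 are named in the submitters' processing notes. Their roles, the annotation, the use of strand and any scaling of libraries were not stated there.

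Groups were taken from the treatment label. Log2 ratios used a pseudocount of 0.5 FPKM and genes with a mean of at least 0.5 FPKM, and genes past 1.5-fold and 2-fold were counted. Fragments were recovered from the steps between low FPKM values of genes with 1 RefSeq transcript, with 210 bases taken off its length (GENCODE M21). Of values under 5.5 fragments, 85.2% (probucol) and 84.7% (untreated) lay within 0.2 of a whole number. Clopper-Pearson 95% intervals of the FPKM ratio condition on the sum of the rounded fragments and cover counting error only. FPKM depends on what else was sequenced: the values summed to 747193 and 675286. Calculations used pandas 2.3.3 and SciPy 1.17.1 and were tested on simulated data. Near-identical transcripts were sought with blastn.

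The members, the lists of other pathway and cell marker genes, and the rules were chosen with earlier results of these data known. All members are accounted for, and of each list of other pathway genes the 3 highest and the 3 lowest could be named. Some genes of these lists are not reported by name here. Alternatives were another pseudocount (0.1 or 1 FPKM), no filter or a mean of at least 1 FPKM, and 3 scalings between libraries.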

Additional observations from a re-analysis of the deposited data

How the results depend on the processing

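With 1 library per group no replicate could be left out. No paired analysis was possible because each group has 1 library. The medians of all members (0.09), sterol pathway members (0.04), fatty acid synthesis members (-0.02) and glycerolipid and droplet members (0.29) moved by less than 0.1 under other pseudocounts, other filters and centring on the median of all genes, though that of fatty acid synthesis crossed 0 without a filter (0.0014). Soat1 was at least 1.5-fold lower under all 7 alternatives. The number of members at least 1.5-fold lower was 1 as reported, 2 with a pseudocount of 0.1 FPKM (Stard4 added, 13.9% of all genes lower) and 2 without a filter (Sqle added, 7.46%). The number higher was 3 with a pseudocount of 0.1 FPKM (Tm7sf2 added, 6.76% of all genes higher).

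Scaling to the same sum of FPKM gave 3 members lower (Stard4, Soat1 and Plin2) and 0 higher, with 15.7% of all genes lower and 2.99% higher, and medians of -0.048, -0.089, -0.15 and 0.14 in the order above. Relative to cardiomyocyte markers, 10 were lower and 0 higher (36.1% and 0.924% of all genes), with medians of -0.37, -0.42 and -0.48, and the median of glycerolipid and droplet members reversed to -0.17. Subtracting the marker median of 0.46 from every ratio produces that shift. Which scaling reflects RNA per cell cannot be told from these files. Among the members, depth limits Sqle, Lss, Tm7sf2 and Elovl6 most, each with at most 14 fragments in a library. Acat2, with 24 and 23 fragments, is limited as well.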
